A study of Homo sapiens with 6 samples.

Results

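ALDH1L2, ASNS, CHAC1 and CBS are 4 genes of amino acid stress, mitochondrial folate metabolism and transsulfuration, out of 10661 genes with a row in at least 1 of the 2 RNA tables used here. They were selected on their measured counts, chosen by being higher in the ME-180 library labelled p63 knockdown than in its control, so the ME-180 values below describe the choice and are not tested. The study compared 4 RNA libraries of human cervical carcinoma lines: ME-180 control cells (column named for the pLKO vector), ME-180 cells labelled p63 knockdown (column named for a p63 short hairpin), SiHa cells with a vector, and SiHa cells overexpressing p63. A p63 chromatin immunoprecipitation and its input from ME-180 completed the 6 samples. Each group was 1 library, so no difference has a replicate check and every 95% interval covers counting error only. The hairpin, the overexpressed isoform and the use of pools or clones were not given in the sources used here. ME-180 and SiHa were grown in different basal media, both with fetal bovine serum, and all groups carry the same passage range in the labels.

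When amino acids are scarce, the kinase GCN2 phosphorylates the translation factor eIF2, general translation slows, and the transcription factor ATF4 is made from a messenger that is translated better under these conditions. ATF4 then raises genes that supply amino acids and one-carbon units, among them asparagine synthetase and enzymes of serine and mitochondrial folate metabolism. The same pathway is used by PERK, the kinase of the endoplasmic reticulum stress response. Transsulfuration joins homocysteine and serine to cystathionine and leads to cysteine and glutathione.

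The 2 ME-180 libraries stood apart from each other in much more than these genes. For TP63 itself, transcript NM_001114980.1 was counted 5619 times in the ME-180 control against 6 in the labelled-knockdown library, and 7 times in SiHa vector against 179 with overexpression. Over 13206 transcripts with rows for both lines, Pearson's r of log2(CPM + 1), where CPM is the count scaled to a table total of 1000000, was 0.806 between the ME-180 libraries, 0.857 between the ME-180 control and the SiHa vector, 0.886 between the labelled-knockdown library and the SiHa vector, and 0.993 between the SiHa libraries (transcripts are not replicates). The labelled-knockdown library was thus less like its own control than either was like the SiHa vector library. Whether it comes from ME-180 cells was not tested, so each ME-180 ratio below compares 2 libraries as labelled. Markers moved with this split: the 9 measured squamous markers were 9 of 9 lower by 2-fold or more there (summed 76360 against 67.4 CPM, with LAMB3 at 0 counts), and of 7 general epithelial markers 7 were lower (4057 against 131.7 CPM, with ELF3, EHF, ESRP1 and SPINT1 at 0). Of 10 markers of neural cells, fetal tissue and embryonic kidney at 1 CPM or more, 8 were higher and 1 lower (100.5 against 821.7 CPM over the 11 with a row, with SALL1 and EYA1 at 0 in the control), and of 8 fibroblast markers 5 were higher and 1 lower (162.5 against 253.6 CPM over 10 with a row, PDGFRB at 0 in the control). Immune markers summed to 53.0 against 11.4 CPM and endothelial markers to 15.6 against 2.79 CPM. In SiHa, with vector first, 7 of 13 squamous markers were higher with overexpression and 0 lower (4400 against 9377 CPM), and 1 of 10 epithelial markers was higher and 0 lower (2604 against 4698 CPM). Of 9 fibroblast markers there 1 was lower and 0 higher (322.4 against 272.8 CPM), and of 11 in the neural, fetal and kidney list 2 were lower and 0 higher (396.4 against 473.0 CPM). Of 3 immune markers and 1 endothelial marker at 1 CPM in SiHa, 0 differed by 2-fold (127.8 against 139.0 CPM and 12.4 against 11.3 CPM). The part of these differences in the results below was not tested. In bulk RNA, fewer cells expressing a gene and less RNA per cell cannot be told apart.

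ALDH1L2, the mitochondrial enzyme that oxidises the formyl group of 10-formyltetrahydrofolate to carbon dioxide with formation of NADPH, went from near 0 to a readily counted transcript in ME-180. Its 1 transcript, NM_001034173.3, had 4 counts in the ME-180 control, 2501 with the knockdown label, 170 in the SiHa vector library and 58 in the SiHa overexpression library. These are 0.370, 248.9, 12.0 and 4.24 CPM, a scale without transcript length that compares libraries and not genes. The library labelled knockdown was 672-fold above its control (95% interval 262 to 2470), and the wide interval follows from the 4 control counts. Of the 6783 ME-180 genes reaching 1 CPM in a library it had the highest log2 ratio of CPM + 1, 7.51.

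CHAC1, a glutathione-degrading enzyme and a known target of the ATF4 response, followed the same order of libraries. Its 1 transcript in the tables, NM_001142776.1, had 6 counts in the ME-180 control, 672 in the labelled-knockdown library, 129 in the SiHa vector library and 59 with overexpression, or 0.555, 66.9, 9.08 and 4.31 CPM. The ME-180 ratio was 120 (55.0 to 329). The control count of 6 again sets the width of the interval.

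ASNS, asparagine synthetase, which makes asparagine from aspartate and glutamine, was the only one of the 4 with more than 100 counts in the ME-180 control. Transcript NM_001178075.1 had 114 counts there, 2441 in the labelled-knockdown library, 355 in the SiHa vector library and 298 with overexpression, or 10.6, 243.0, 25.0 and 21.8 CPM. The ME-180 ratio was 23.0 (19.1 to 28.0), the smallest of the 4.

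CBS, cystathionine beta-synthase, the first enzyme of transsulfuration, had its lowest level in the ME-180 control by a wide margin. Transcript NM_000071.2 had 82 counts in that control, 7255 in the labelled-knockdown library, 4281 in the SiHa vector library and 3809 with overexpression, or 7.59, 722, 301.3 and 278 CPM. The ME-180 ratio was 95.1 (76.6 to 119.8). The 2 SiHa libraries lay much nearer to the labelled-knockdown library than to the ME-180 control for this gene.

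All 4 genes were past the 2-fold rule in ME-180 (a ratio of CPM + 1 of 2 or more, with 1 CPM reached in a library), against a background of 28.2% of 6783 genes higher by that rule and 20.6% lower. Of the called genes of this comparison 57.8% were higher, and 47.6% with trimmed mean scaling. The background is given for scale only, since this contrast chose the genes. In the authors' deposited table, the log2 fold changes were 9.03 for ALDH1L2, 6.56 for CHAC1, 6.25 for CBS NM_000071.2 and 4.20 for ASNS NM_001178075.1.

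**Figure D1:**
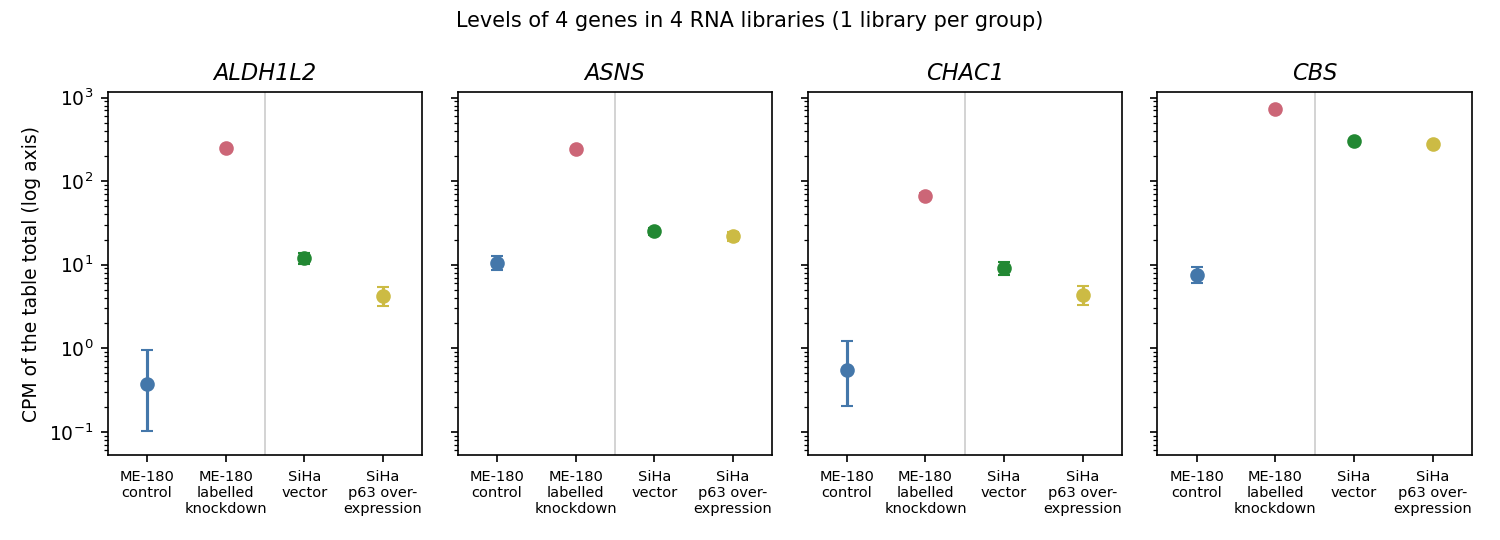
Level of each gene in each of the 4 RNA libraries, in CPM of the table total on a log axis, with exact 95% Poisson intervals of the count (1 transcript per gene, the same in both tables). In each panel the labelled-knockdown library is highest and the ME-180 control lowest; the grey line separates the tables, which were totalled separately.

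The order of the libraries was the same for each of the 4 genes: labelled knockdown, SiHa vector, SiHa overexpression, ME-180 control. Of 6469 genes with the same transcript in both tables and at least 1 CPM in a library, 13.2% (855) had this order, and of the 1820 of them that were at least 2-fold higher in the labelled-knockdown library 39.5% (719) had it. The step from labelled knockdown to SiHa vector was 20.8-fold for ALDH1L2 (17.8 to 24.4), 9.72-fold for ASNS (8.70 to 10.9), 7.37-fold for CHAC1 (6.09 to 8.96) and 2.40-fold for CBS (2.31 to 2.49). The middle step, from SiHa vector to overexpression, was 2.82-fold for ALDH1L2, 2.11-fold for CHAC1, 1.08-fold for CBS and 1.15-fold for the ASNS transcript NM_001178075.1. For that transcript the interval of 0.981 to 1.34 includes 1, so counting error does not resolve the order of its SiHa libraries. The step from SiHa overexpression to the ME-180 control was 36.7-fold for CBS (29.5 to 46.2), 11.4-fold for ALDH1L2 (4.24 to 43.4), 7.76-fold for CHAC1 (3.36 to 22.0) and 2.06-fold for ASNS (1.66 to 2.58). These steps cross tables that hold different rows. Only 69.2% of the SiHa vector counts lie in rows that the ME-180 table also has, against 99.6% of the ME-180 control counts, and CPM over these shared rows put CBS at 435 in the SiHa vector library and 725 in the labelled-knockdown library. The order of the 4 libraries held for each of the 4 genes on that scale. The shares of 13.2% and 39.5% were counted on table totals only and not on shared rows.

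The SiHa comparison asks whether raising p63 in another cervical line goes with a change of these genes, and it did not enter the choice of direction. ALDH1L2 was 2.82-fold lower with overexpression (2.08 to 3.87), with 170 against 58 counts. CHAC1 was 2.11-fold lower (1.54 to 2.92), with 129 against 59 counts. Both intervals exclude equal levels as far as counting error goes, and neither has a replicate.

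ASNS and CBS differed little between the SiHa libraries. The most counted ASNS transcript there, NM_001673.4, had 460 against 317 counts, 1.40-fold lower (1.21 to 1.62), and CBS NM_000071.2 was 1.08-fold lower (1.04 to 1.13). On log2(CPM + 1), the values were -1.31 for ALDH1L2, -0.92 for CHAC1, -0.47 for ASNS and -0.11 for CBS, where the median of 6996 genes was -0.05. Only ALDH1L2 of the 4 passed the 2-fold rule with this pseudocount, where 0.743% of 6996 genes were lower and 0.572% higher, and it ranked 15th from the lowest. In the authors' deposited table, the log2 fold changes were -1.46 for ALDH1L2, -1.03 for CHAC1, -0.44 for ASNS NM_001673.4 and -0.08 for CBS NM_000071.2. They come from 1 library per group, so no replicate stands behind them.

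All 4 SiHa ratios were below 0, as were those of 57.4% of the 6996 genes. Among the 1513 genes that were at least 2-fold higher in the ME-180 library labelled knockdown and had at least 1 CPM in a SiHa library, 68.2% lay below 0 in SiHa and 1.19% were at least 2-fold lower. A sign below 0 was common among such genes, and a 2-fold lower value was not.

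**Figure D2:**
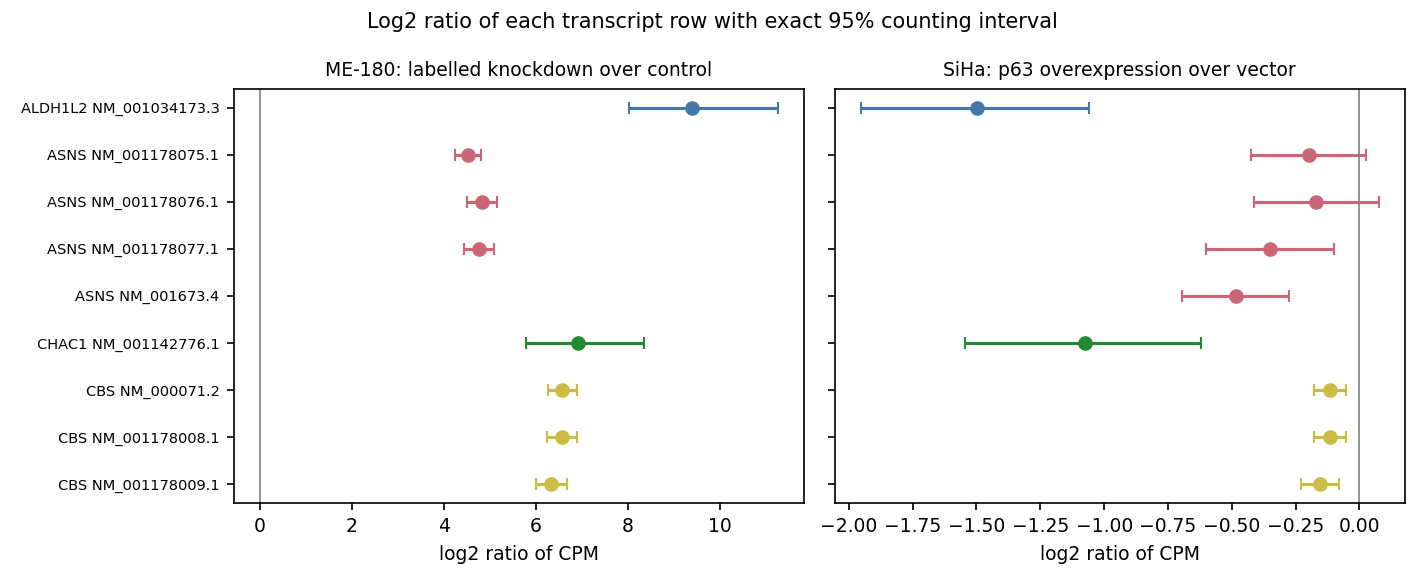
Log2 ratio of CPM for each transcript row of the 4 genes (points) with exact 95% counting intervals (bars), labelled knockdown over control in ME-180 (left) and overexpression over vector in SiHa (right); the 2 horizontal axes differ in scale. The ME-180 ratios range from 4.53 for an ASNS transcript to 9.39 for ALDH1L2, and all SiHa ratios lie below 0, with the intervals of 2 ASNS transcripts crossing it.

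The transcripts of a gene gave like ratios in ME-180. The 4 genes had 8 transcript rows in the ME-180 table and 9 in the SiHa table, and rows of 1 gene can share reads. The 3 CBS transcripts had ME-180 ratios of 95.1, 94.6 and 81.0, with overlapping intervals, and SiHa ratios of 0.923, 0.923 and 0.898. For ASNS, NM_001178076.1 had 80 against 2107 counts and NM_001178077.1 had 84 against 2114, ratios of 28.3 (22.7 to 35.9) and 27.1 (21.8 to 34.1), overlapping the 23.0 of NM_001178075.1 in their intervals.

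In SiHa the ASNS transcripts ran from 0.715 to 0.890. NM_001178075.1 had a ratio of overexpression to vector of 0.871 (0.744 to 1.02) and NM_001178076.1 of 0.890 (0.750 to 1.05), so counting error alone covers equality for both. NM_001178077.1 had 0.785 (0.660 to 0.933) and NM_001673.4 had 0.715 (0.618 to 0.827). The intervals of the 4 overlap. NM_001673.4 has no value in ME-180 here.

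Promoter sequence is shown for ASNS and CHAC1 because both hold the core of the C/EBP-ATF response element, the site through which ATF4 is known to act on amino acid stress genes, and because the 4 genes were higher together. The letters searched were TGATGNAA on both strands, in RefSeq windows of GRCh38.p14 from 250 bases before to 50 after each gene's start. This build differs from the hg19 of the deposited data, so no window was joined to a p63 peak. The 250 bases before the start follow, 5′ to 3′ on the gene's strand, with the match in capitals.

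ASNS, chr7:97872409-97872658, minus strand: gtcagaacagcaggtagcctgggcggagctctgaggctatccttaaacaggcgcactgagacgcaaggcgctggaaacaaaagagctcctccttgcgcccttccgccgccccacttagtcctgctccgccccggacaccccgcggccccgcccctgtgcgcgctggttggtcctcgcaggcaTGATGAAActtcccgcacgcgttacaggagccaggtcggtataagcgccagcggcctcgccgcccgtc
CHAC1, chr15:40953221-40953470, plus strand: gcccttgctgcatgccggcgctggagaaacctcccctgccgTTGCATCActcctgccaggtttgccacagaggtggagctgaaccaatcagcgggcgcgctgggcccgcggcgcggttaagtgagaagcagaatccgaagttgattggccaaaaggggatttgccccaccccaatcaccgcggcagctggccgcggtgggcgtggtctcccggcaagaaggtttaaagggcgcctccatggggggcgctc

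In ASNS the match TGATGAAA lies on the gene's strand at position -68 from the start. In CHAC1 TGATGCAA lies on the opposite strand at -209, printed there as its reverse complement. A second ASNS window and 3 CBS windows held no match, which says only that these letters are not in those windows. None of the windows of the 3 matched genes held TGACGTCA, the cyclic AMP response element, which 1.85% of all windows hold. ALDH1L2 had no entry in the promoter table. TGATGNAA occurs in 3.62% of 35116 windows and in at least 1 window of 4.46% of 27305 genes. Among the other pathway genes described next, 18 of 90 with a window held it (20.0%); these lists contain known ATF4 targets.

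Sites of 5 of those genes, picked after their values were seen, are shown, 3 higher and 2 lower in the labelled-knockdown library, each as 30 bases around the match in capitals (GRCh38.p14, gene strand).

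MTHFD1L, chr6:150866346-150866375, plus strand: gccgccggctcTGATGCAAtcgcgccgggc
CEBPG, chr19:33374060-33374089, plus strand: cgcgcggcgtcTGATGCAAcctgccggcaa
SLC1A5, chr19:46784893-46784922, minus strand: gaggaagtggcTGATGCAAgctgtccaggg
SLC1A3, chr5:36596357-36596386, plus strand: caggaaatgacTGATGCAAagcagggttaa
AHCYL2, chr7:129368232-129368261, plus strand: ggtgcagcactTTGCATCAgctctgatttt

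Holding the letters did not go with one direction. Of 15 pathway genes with a match and at least 1 CPM in ME-180, 6 were at least 2-fold higher and 4 lower (median log2 ratio 0.74), and of 57 without a match 22 were higher and 8 lower (median 0.65).

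The other genes of the pathways were given by 13 lists that leave out the 4 genes. In ME-180, 97 of them had at least 1 CPM, and 36 were at least 2-fold higher and 16 lower (median log2 ratio 0.65), against 28.2% higher and 20.6% lower of all 6783 genes (median 0.28). The higher share of called genes was 69.2%, and 58.5% with trimmed mean or DESeq2 scaling, which moved the median of all genes by -0.28 and -0.27 on the log2 scale. PHGDH, PSAT1, MTHFD2, TRIB3 and SESN2 are known ATF4 targets that were not analysed here. All log2 ratios below are of CPM + 1, labelled knockdown over control in ME-180.

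**Figure D3:**
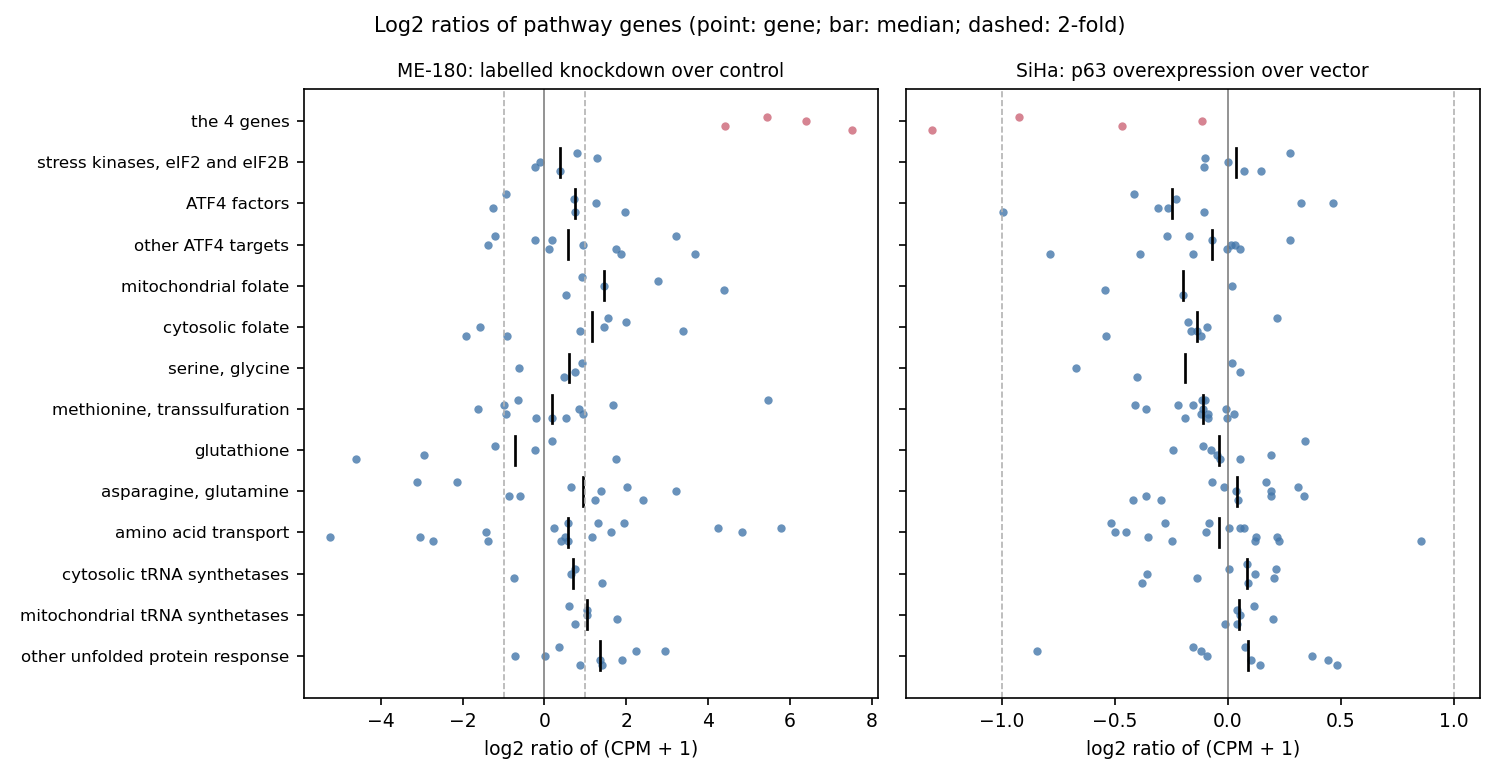
Log2 ratios of CPM + 1 for the 4 genes (red) and for the pathway lists (blue, 1 point per gene with at least 1 CPM in a library, black bar the list median), in ME-180 (left) and SiHa (right), with dashed lines at 2-fold and different horizontal scales. In ME-180 the lists spread to both sides, from -5.24 to 5.78, and in SiHa none of their genes passes 2-fold.

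Factors of the ATF4 response were mixed in ME-180. Of 6 measured, 2 were higher and 1 lower (median 0.74), and with trimmed mean scaling 1 was higher and 2 lower. ATF3, a stress-induced partner of ATF4, had 89 against 352 counts (1.96), and CEBPG, which pairs with ATF4, had 1029 against 2302 (1.26, and 0.98 with trimmed mean scaling). ATF5, a related stress factor, had 248 against 90 counts (-1.27). DDIT3, which encodes CHOP, had 147 against 234 counts (0.73), short of the rule. ATF4 has no value in ME-180 here. Of 5 genes for stress kinases and eIF2B subunits, 1 was higher, EIF2B3, a subunit of the eIF2 exchange factor (1.28), and EIF2AK4, which encodes GCN2, was at -0.11.

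Of 10 further ATF4 targets, 4 were higher and 2 lower (median 0.56). ADM2, a peptide hormone of the calcitonin family, had 7 against 203 counts (3.69), and GPT2, the mitochondrial alanine transaminase, had 237 against 2124 (3.21). GRB10, an adaptor of the insulin receptor, was at 1.88 and CHAC2, the paralog of CHAC1, at 1.75. SQSTM1, the autophagy receptor p62, was at -1.39.

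The mitochondrial folate genes around ALDH1L2 lay above 0 in ME-180, 5 of 5, with 3 past the rule (median 1.47). Of all 6783 genes, 3963 lay above 0. MTHFD1L, the mitochondrial formyltetrahydrofolate synthetase, had 85 against 1852 counts, 23.4-fold (18.8 to 29.5). SARDH, a sarcosine dehydrogenase, had 8 against 109 counts (2.77), and MTHFD2L 27 against 87 (1.47, and 0.87 with a pseudocount of 5). SHMT2, the mitochondrial serine hydroxymethyltransferase, had 1625 against 2869 counts (0.92), below the rule. Of 4 serine and glycine genes 0 passed in either direction, with SHMT2 highest and GLDC, the glycine decarboxylase, at -0.61.

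Cytosolic folate genes were higher in 4 and lower in 2 of 8 (median 1.15). SLC19A1, the reduced folate carrier, had 79 against 860 counts, 11.7-fold (9.29 to 14.9), and GART, a purine enzyme that uses formyl folate, was at 1.56. FTCD had 0 against 30 counts, 10.8-fold higher with 0 set to 3 counts (lower limit 8.22), with a log2 ratio of 0.68 at a pseudocount of 5. ALDH1L1, the cytosolic paralog of ALDH1L2, went the other way, with 50 against 5 counts, 9.30-fold lower (3.73 to 29.9), a log2 ratio of -0.81 with a pseudocount of 5. FPGS, which adds glutamates to folate, was also lower (-1.57). Higher genes lay in both compartments, and the 2 ALDH1L paralogs were opposite in direction.

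Around CBS, the next transsulfuration enzyme was higher as well. CTH, cystathionine gamma-lyase, had 11 against 879 counts, 85.9-fold (47.8 to 172.8), close in size to CBS. Of 11 methionine and transsulfuration genes at 1 CPM, 2 were higher and 1 lower (median 0.19, below the 0.28 of all genes), and with trimmed mean scaling 3 were lower. MTR, methionine synthase, was at 1.69, AHCY, which makes homocysteine, at 0.52, and AHCYL2 at -1.63.

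The glutathione list had 1 of 6 genes higher and 3 lower (median -0.71). GCLC, the catalytic subunit of the first step of glutathione synthesis, had 4582 against 541 counts, 7.88-fold lower (7.20 to 8.63). OPLAH, which recycles the 5-oxoproline that CHAC enzymes release, had 254 counts against 0, 78.7-fold lower with 0 set to 3 counts (lower limit 63.6). GSR, glutathione reductase, was at -1.20. CHAC1 and CHAC2, which degrade glutathione, were higher, GCLC and OPLAH were lower, and GSS, the second step of synthesis, was at 0.18.

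Asparagine, glutamine and proline genes around ASNS split, with 5 of 10 higher and 2 lower (median 0.94). Besides GPT2, ALDH18A1, the first enzyme of proline synthesis, had 898 against 4487 counts (2.41) and ASRGL1, an asparaginase, 163 against 639 (2.01). ASS1, argininosuccinate synthase, had 17579 against 1866 counts, 8.76-fold lower (8.35 to 9.19), and PRODH, proline dehydrogenase, was at -2.14.

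Amino acid transporters held the widest spread, 7 of 17 higher and 5 lower (median 0.58). SLC43A1, a carrier of branched-chain amino acids, had 9 against 1003 counts (5.78). The cationic carriers SLC7A2 and SLC7A3 had 5 against 408 (4.83) and 0 against 179 (64.2-fold with 0 set to 3 counts, lower limit 51.6). SLC7A8, a carrier of large neutral amino acids, had 2882 against 61 counts (-5.24) and SLC1A4, of alanine, serine and cysteine, 3914 against 430 (-3.05).

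Of 4 cytosolic tRNA synthetases with a row 1 was higher (CARS, 1.40), and of 5 mitochondrial ones 3 were higher (median 1.03): NARS2 (1.77), VARS2 (1.04) and SARS2 (1.03), of which VARS2 and SARS2 fell short with trimmed mean scaling, at 0.76 and 0.75. Among targets of the other unfolded protein response branches, 5 of 9 were higher and 0 lower (median 1.37). They were DERL3 (2.95), the transcription factor XBP1 (2.24), the chaperone HYOU1 (1.89), HERPUD1 (1.40) and CRELD2 (1.37).

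In SiHa 0 of 110 pathway genes passed the 2-fold rule in either direction (median -0.06, against -0.05 for all 6996). With a pseudocount of 0.1 CPM 3 were lower: ATF3, ADM2 and SEL1L. ATF4 itself had 8162 against 6555 counts, 1.20-fold lower with overexpression (1.16 to 1.24). ATF3 had 105 against 44 counts, 2.30-fold lower (1.60 to 3.35), ADM2 64 against 30, 2.06-fold (1.31 to 3.29), and DDIT3 143 against 100, 1.38-fold (1.06 to 1.80).

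The ATF4 factor list lay below 0 in 6 of 8 genes in SiHa (median -0.24), with ATF5 at 0.32 and NUPR1 at 0.47. Of 14 methionine and transsulfuration genes, 13 lay below 0 (median -0.11), as did 57.4% of all 6996 genes (median -0.05). Some were barely below, such as AHCY (-0.001) and AHCYL2 (-0.008), where trimmed mean scaling moved the median of all genes by 0.04. Other lists had more genes above 0: 5 of 6 mitochondrial and 6 of 9 cytosolic tRNA synthetases, and 6 of 10 unfolded protein response targets. Of all 110 pathway genes, 62 lay below 0 and 48 above. CTH, which stood beside CBS in ME-180, had 131 against 118 counts, a ratio of 0.935 (0.723 to 1.21). Mitochondrial folate genes were at 0.02 for SHMT2, -0.20 for MTHFD1L and -0.54 for MTHFD2L, and the unfolded protein response targets HYOU1 and CRELD2 were at 0.37 and 0.45. On log2(CPM + 1), ALDH1L2 and CHAC1 had larger SiHa differences than any gene of these 13 lists except ATF3, which lay between them at -0.99. This standing of CHAC1 depends on the added 1 CPM. On plain CPM, where CHAC1 was 2.11-fold lower, SEL1L (43 against 17 counts) was 2.44-fold lower. SLC7A7 (18 against 8) was 2.17-fold lower and ALDH1L1 (20 against 9) 2.14-fold, both with intervals that include 1.

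The genes with the most similar profile over the 4 libraries were found among 5087 genes with a row in both tables and at least 100 counts in a library, by the root mean square difference of log2(CPM + 1) after centring each gene. For ASNS these were WDR17 (0.04), CAND2 (0.04) and SLC5A5 (0.10), and for CHAC1 BEND4 (0.12), JAM3 (0.14) and TBX18 (0.19). For CBS they were RIMS4 (0.22), SMOC1 (0.29) and ADRA2C (0.29), all high in both SiHa libraries. In the ME-180 control, WDR17, TBX18 and SMOC1 had 0 counts and BEND4 had 1. The added 1 CPM compresses the folds of such genes, so a small distance is not a like fold. The ASNS profile joins NM_001178075.1 in ME-180 to NM_001673.4 in SiHa. In the SiHa vector library NM_001178075.1 had 25.0 CPM and NM_001673.4 had 32.4, a gap that the ASNS distances do not allow for.

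ALDH1L2 had no neighbour that close: NFATC4 (0.61), ALDH1A2 (0.65) and SLC43A1 (0.69) were nearest. NFATC4 had 0 counts in the ME-180 control and ALDH1A2 had 1. Among the 4 genes themselves the nearest pair was ASNS and CHAC1 (0.45), then ALDH1L2 and CHAC1 (0.82), while CBS was 1.27 or more from each of the others. With 4 libraries these likenesses are a description.

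**Figure D4:**
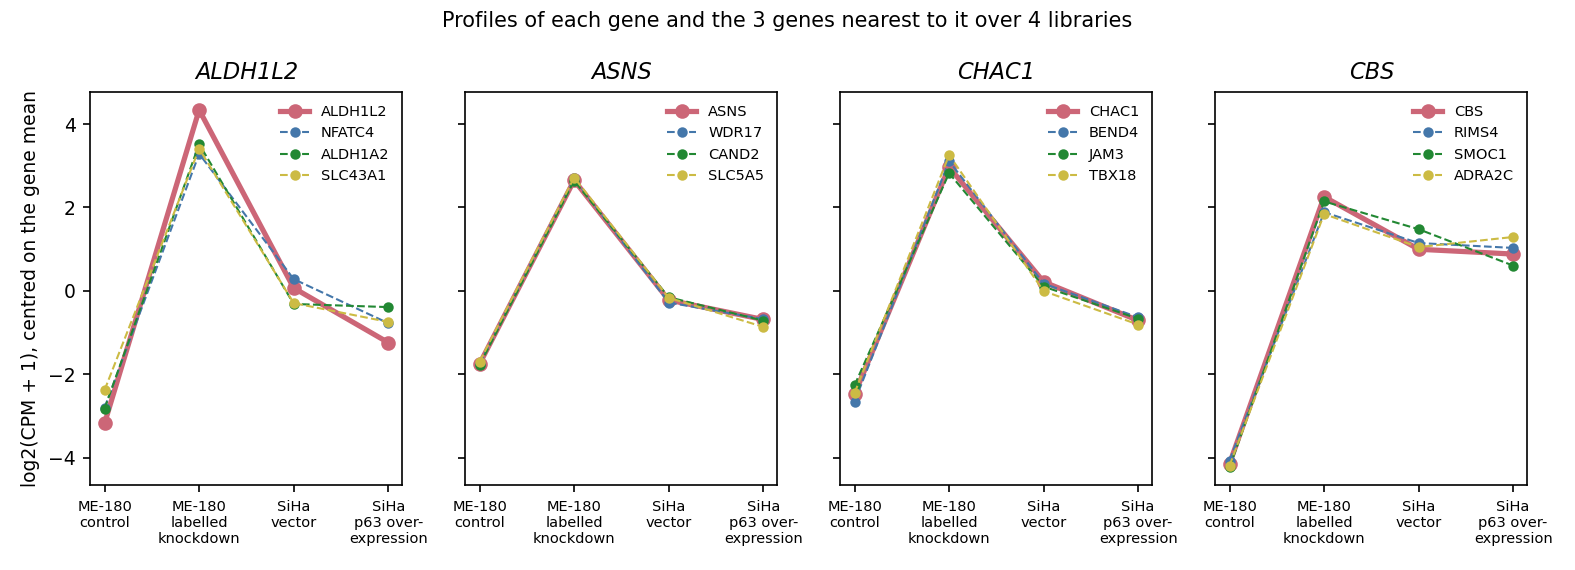
Profiles over the 4 RNA libraries of each gene (red, solid) and of the 3 genes nearest to it (dashed), as log2(CPM + 1) centred on the gene's own mean over libraries. ASNS and CHAC1 are nearly covered by their neighbours, ALDH1L2 has a wider range than its own, and CBS stays high in both SiHa libraries. The ASNS profile joins NM_001178075.1 in ME-180 to NM_001673.4 in SiHa.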

How the data were processed

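Groups came from the titles in the labels, with 1 library per group. The submitters' processing notes name TopHat, Cufflinks, DESeq2 and the build hg19, without roles or versions. Counting method and strand use: not given in the sources used here. Whole-number counts per RefSeq transcript (15189 rows for ME-180, 16600 for SiHa) were deposited by the authors, with a log2 fold change and p-value per row. The tables totalled 10804272 and 10046579 counts for ME-180 control and labelled knockdown, and 14207637 and 13690639 for SiHa vector and overexpression. The tables lack common genes, so totals are not depths, and a gene without a row is not analysed here. The deposited coordinates of 6466 p63 peaks (another kind of value, in hg19) were not used for genes.

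Counts were scaled to 1000000 per table (CPM). The transcript with most CPM over both libraries of a table stood for its gene. Ratios of the 4 genes used plain CPM, with exact 95% conditional binomial intervals, and lists used log2(CPM + 1), with calls at 2-fold and at least 1 CPM in a library. Counts of 0 were set to 3 for folds. No p-value was computed. Date-like names (32 and 31 rows) were resolved through RefSeq identifiers. Members, lists and tests were chosen with earlier results of these data known. Up to 5 called genes per list, by size, and 3 profile neighbours per gene are named, and genes short of the 2-fold rule or printed for a promoter site were named after their values were seen. On counts simulated with counting error only and genes changed 4-fold, 100 of 100 raised and 100 of 100 lowered genes were called in each experiment. With genes changed 1.5-fold, 0 of 100 raised genes were called in ME-180 and 1 of 100 in SiHa. The simulation had no variation between libraries, so it checks the rule and not the calls on the measured counts. Scaling factors came from edgeR 4.0.16 and DESeq2 1.42.0 (the alternatives), and the rest from Python 3.11.15 with scipy 1.17.1.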

Additional observations from a re-analysis of the deposited data

How the results depend on the processing

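All 4 genes kept their direction in both experiments under each alternative tried. In ME-180, a pseudocount of 1 CPM gave log2 ratios of 7.51 for ALDH1L2 and 5.45 for CHAC1, whose control counts were 4 and 6. ASNS was at 4.24 with trimmed mean scaling, 4.25 with DESeq2 size factors and 4.82 for its least counted transcript. On shared rows, CPM in SiHa vector and overexpression were 17.3 and 6.14 for ALDH1L2, 36.1 and 31.6 for ASNS, 13.1 and 6.25 for CHAC1, and 435 and 404 for CBS. Genes called in ME-180 numbered 1272 higher and 918 lower with a pseudocount of 5, and 873 lower with a floor of 10 CPM. In SiHa, 113 were higher and 227 lower with a pseudocount of 0.1, 14 and 6 with 5, and 18 and 14 with a floor of 10 CPM. Of the pathway genes, 3 were lower in SiHa with a pseudocount of 0.1. With trimmed mean scaling, the split of called ME-180 genes went from 57.8% to 47.6% higher. Of 64 single genes called in ME-180, 5 fell short of 2-fold with either scaling and 11 with a pseudocount of 5, and 0 reversed. No paired analysis was possible because each group has 1 library.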

Other observations

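The aldehyde dehydrogenase family, to which ALDH1L2 belongs, split evenly in ME-180: of 17 other members, 7 were higher by 2-fold or more and 7 lower in the labelled-knockdown library (median log2 ratio of CPM + 1, -0.20). These are 41.2% in each direction, against 28.2% higher and 20.6% lower of all 6783 genes (median 0.28). ALDH3A1, an enzyme of corneal and squamous epithelium, had 10815 against 25 counts, control first, 402-fold lower (272 to 622). ALDH1A3, which makes retinoic acid, had 10137 against 332 counts, 28.4-fold lower (25.4 to 31.8). ALDH1A2, another retinoic acid enzyme, had 1 against 878 counts, a ratio of 944 (169 to 37337), and ALDH18A1 was at 2.41. ALDH3B2 had 49 counts against 0, 15.2-fold lower with 0 set to 3 counts (lower limit 11.9), with a log2 ratio of -0.93 at a pseudocount of 5. In SiHa 0 of 15 members passed the rule, with ALDH1A3 highest, at 1780 against 3270 counts (0.93), and ALDH1L1 and ALDH7A1 lowest, at -0.54 and -0.51.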
